A study of Mus musculus with 7 samples.

Results

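The CD8 TIL repertoires of 7 tumor-bearing mice held 6907 in-frame TCRβ rearrangements, and 4011 of them were found on a single template molecule. These 4011 rearrangements are the unexpanded pool described here. They were chosen by 2 deposited values, a template number of 1 and an in-frame call, so their low abundance is a description and not a result. They were counted as nucleotide rearrangements, each once, in the mouse in which they were found.

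CD8 TILs are CD8 T cells that have entered a tumor. They were taken from C57BL/6 mice aged 6 to 8 weeks that carried subcutaneous A223 tumors, grown from a line of murine squamous cell carcinoma. Every mouse had been treated with the anti-PD-L1 antibody, and no untreated arm was part of these libraries. Tumors of 3 responders (R, 1R to 3R) and 4 non-responders (NR, 4NR to 7NR) were used, and each mouse gave 1 library. After positive selection for CD8, the rearranged TCRβ genes in the genomic DNA were amplified in a multiplex PCR and sequenced by immunoSEQ at its survey depth. The files give no other genes, so the CD8 label could not be checked against marker genes.

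A TCRβ gene is built in a developing thymocyte by joining a V, a D and a J segment. Bases are trimmed from the segment ends, and the enzyme terminal deoxynucleotidyl transferase adds untemplated N bases at the joins. The joined stretch encodes the CDR3, the loop that meets the peptide held by an MHC molecule. The mouse locus has 2 D segments, each followed by a cluster of J segments, and a D segment can join only a J segment that lies downstream of it. A rearrangement that falls out of frame makes no receptor chain and stays in the cell as a passenger beside a productive one.

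The number of single-template rearrangements was 793, 426 and 640 in 1R, 2R and 3R, and 567, 557, 187 and 841 in 4NR, 5NR, 6NR and 7NR. They were 55.6% to 59.8% of the in-frame rearrangements of a mouse but only 4.74% to 11.2% of its productive templates. A single template was worth between 0.00659% of the productive templates in 7NR and 0.0429% in 6NR, the shallowest library. Just outside the rule lay 1342 rearrangements with 2 templates, 17.4% to 21.6% of the in-frame rearrangements of a mouse, and a further 760 with 3 templates. The mean share of single-template rearrangements was 56.9% ± 1.63 over the 3 R mice and 58.5% ± 1.70 over the 4 NR mice (SD), with overlapping ranges (exact permutation test, two-sided, p = 0.257). Their mean share of productive templates was 5.73% in R and 7.38% in NR (exact permutation test, p = 0.457). With 3 mice against 4 the smallest p this test can give is 0.0286.

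Productive templates ranged from 2332 to 15182 per mouse, and the library of 6NR was the shallowest and had the highest share of single-template sequences also found in another mouse. The smallest p that the paired test over 7 mice can give is 0.0156, which needs the same direction in all 7.

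A member close to the middle of the pool is shown first, because it carries the most used V and J gene, the median CDR3 length of 14 residues and the median of 3 N bases. It encodes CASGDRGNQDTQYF and was found in 6NR, and 7 rearrangements met all these conditions. Capitals mark the N bases, and the CDR3 nucleotides are printed from the codon of the conserved cysteine to the last deposited base.
6NR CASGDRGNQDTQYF: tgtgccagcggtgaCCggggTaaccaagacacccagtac

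CDR3 lengths of the pool ran from 8 to 20 residues. A length of 14 residues was the most common, with 1214 rearrangements or 30.3% of the pool, and 81.8% had 12 to 15 residues. N insertions had a median of 3 bases and reached 29. No N base was called in 394 rearrangements, on average 9.57% ± 1.25 of a mouse's pool (SD, n = 7). Of the D segments, TCRBD01-01 was assigned to 1677 rearrangements and TCRBD02-01 to 1545, while 704 could not be told between them and 85 had none assigned. TCRBD02-01 was assigned to 10.3% of 906 rearrangements with a J gene of cluster 1 that had a D call. With cluster 2 it was 62.7% of 2316. TCRBD02-01 lies downstream of J cluster 1, so the former are calls against the order of the locus. These shares leave out the 704 that could not be told apart, and how often D was miscalled with cluster 2 was not tested.

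The most used J gene of the pool was TCRBJ02-05 with 641 rearrangements, followed by TCRBJ01-01 with 533, TCRBJ02-04 with 492 and TCRBJ02-01 with 448. The share of TCRBJ02-05 was 16.1%, 15.3% and 16.1% in the R mice and 16.8%, 14.7%, 15.5% and 16.5% in the NR mice. The most used V genes were TCRBV13-02 (456 rearrangements), TCRBV19-01 (301), TCRBV13-03 (276), TCRBV03-01 (269) and TCRBV16-01 (268). The share of TCRBV13-02 was 10.5%, 11.7% and 12.8% in the R mice and 11.3%, 10.6%, 12.3% and 11.3% in the NR mice. Both genes were thus used at nearly the same level by all 7 mice, with SDs of 0.726 and 0.856 percentage points. The 29 V gene names of the pool all matched a V gene of the mouse RefSeq annotation (assembly GRCm38.p6), for example Trbv13-2 for TCRBV13-02. V and J genes combined in 275 pairs, of which 65 were present in the single-template pool of every mouse. The pairs with most rearrangements were TCRBV16-01 with TCRBJ02-07 (78), TCRBV13-02 with TCRBJ02-05 (70) and TCRBV13-02 with TCRBJ02-04 (68).

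J gene use differed strongly between the single-template rearrangements and the 2896 in-frame rearrangements with 2 or more templates. The 12 J genes tested all differed (100% called by edgeR's quasi-likelihood test on the number of distinct rearrangements, with the mouse as a block and Benjamini-Hochberg adjustment). Of these, 6 were higher in the single-template pool (50%) and 6 were lower (50%). TCRBJ02-07 was the J gene with the largest difference. It made up 6.31%, 10.6% and 12.7% of the single-template rearrangements in the R mice and 9.35%, 15.8%, 12.8% and 11.2% in the NR mice. Among rearrangements with 2 or more templates its share was between 38.2% and 43.3% in every mouse, so the pools did not overlap (log2 fold change -2.26 ± 0.15 SE, edgeR adjusted p = 2.59e-13).

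Of the J genes that were higher in the single-template pool, TCRBJ01-06 made up 4.00% ± 0.855 of the single-template rearrangements and 0.687% ± 0.445 of the others (SD, n = 7, log2 fold change 2.18 ± 0.26 SE). TCRBJ02-04 made up 12.5% against 2.73% (1.70 ± 0.18), TCRBJ01-01 13.1% against 3.32% (1.66 ± 0.16) and TCRBJ02-05 15.9% against 5.74% (1.12 ± 0.14). TCRBJ02-03 and TCRBJ02-02 were higher by 0.87 and 0.71 on the log2 scale. On the low side stood TCRBJ01-05 (-2.16 ± 0.21), TCRBJ01-03 (-1.67 ± 0.20), TCRBJ01-04 (-1.03 ± 0.16), TCRBJ01-02 (-0.86 ± 0.15) and TCRBJ02-01 (-0.70 ± 0.13). The J fold changes of this comparison were taken after edgeR's TMM normalization and lie below the log2 ratios of the mean shares. Differences on the low side are therefore smaller by share. TCRBJ02-01, for example, made up 11.1% against 13.8%. After thinning every mouse to the 2861 templates of the shallowest one, 7 of the 12 passed. TCRBJ02-07 was then at -0.86, while TCRBJ01-02 (-0.03), TCRBJ01-03 (-0.29), TCRBJ01-05 (-0.31), TCRBJ02-02 (0.56) and TCRBJ02-05 (0.26) did not pass. Thinning leaves a single template of some rearrangements that had more, so the thinned pool is not the pool described here. By cluster, 2 of the 6 genes of J cluster 1 were higher and 4 lower, with a median log2 fold change of -0.95. In J cluster 2, 4 were higher and 2 lower, with a median of 0.79 beside a median of 0.00 over all 12.

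The same split by J gene was present among rearrangements that make no protein. Out-of-frame rearrangements with 1 template were set against out-of-frame rearrangements with 2 or more, and again 12 of 12 J genes differed (100%, edgeR adjusted p under the 0.05 threshold), 6 higher and 6 lower (50% each). TCRBJ02-04 was higher there by 2.36 on the log2 scale and TCRBJ01-06 by 1.70, while TCRBJ01-05 was lower by a log2 fold change of -1.54. TCRBJ02-07 was the exception in size, with a log2 fold change of -0.19 ± 0.06 (SE). Single-template rearrangements were 85.3% of all in-frame and 84.2% of all out-of-frame rearrangements with TCRBJ01-01. With TCRBJ01-06 they were 89.3% and 87.4%. With TCRBJ02-07 they were 27.3% in frame and 64.5% out of frame.

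The share of TCRBJ02-07 did not move in 1 direction with the template number. In frame it was 10.8% of rearrangements with 1 template, 28.2% with 2 and 64.6% with 3, then 36.4% with 4 or 5 and 36.0% with 6 or more, pooled over mice. Out of frame it was 25.3%, 23.1% and 53.6% with 1, 2 and 3 templates, then 29.4% and 24.9%. The rise at 3 templates was present in both frames and in every mouse, with 59.4% as the lowest share in frame. The template number is an estimate made by the sequencing service from reads of a multiplex PCR, and its part in these differences by J gene was not tested.

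**Figure D1:**
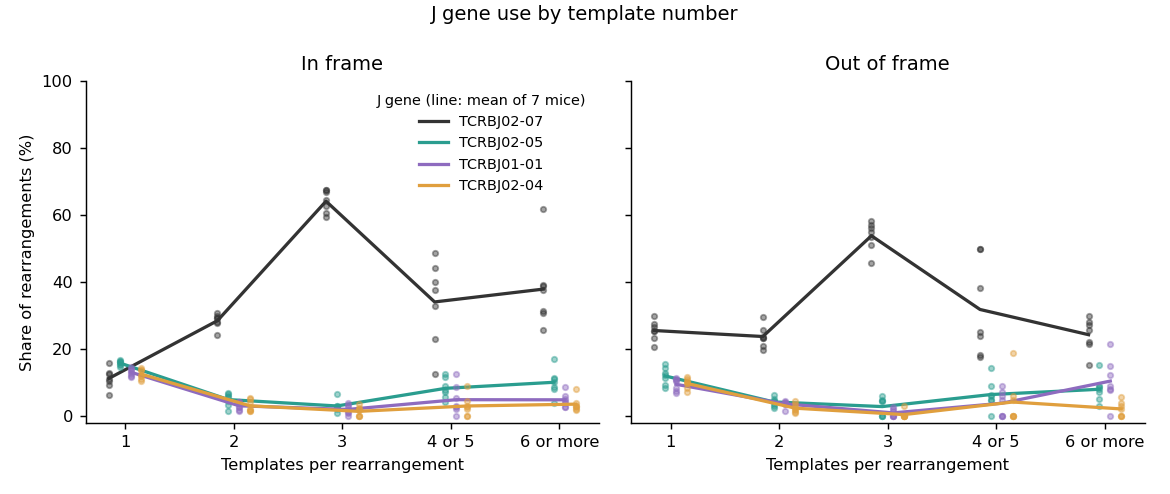
Share of 4 J genes (percent of rearrangements, linear axis) by the number of templates per rearrangement, in frame and out of frame. Each point is a mouse and each line joins the means of 7 mice. TCRBJ02-07 peaks at 3 templates in both panels, at 64.1% in frame and 53.8% out of frame, while the other J genes are at their highest or near it at 1 template.

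Among V genes the differences between these pools were smaller, and 7 of 24 tested V genes passed (29.2%, edgeR quasi-likelihood test). TCRBV24-01 (log2 fold change 0.78 ± 0.23 SE), TCRBV13-02 (0.53 ± 0.11), TCRBV05-01 (0.45 ± 0.17) and TCRBV12-02 (0.42 ± 0.15) were higher in the single-template pool (16.7%). TCRBV26-01 (-0.73 ± 0.19), TCRBV12-01 (-0.44 ± 0.12) and TCRBV19-01 (-0.39 ± 0.11) were lower (12.5%). By position in the locus, 1 of 5 distal V genes (TCRBV01 to TCRBV05) was higher. Of 9 middle V genes (TCRBV12 to TCRBV17) 2 were higher and 1 lower, and of 9 proximal V genes (TCRBV19 to TCRBV30) 1 was higher and 2 lower. TCRBV31-01, which is joined by inversion, had a log2 fold change of 0.27 and did not pass. Set against rearrangements with exactly 2 templates, 0 of the V genes passed, and TCRBV13-02 had a log2 fold change of 0.38 (edgeR adjusted p = 0.162). TCRBV19-01 turned to 0.09 against expanded clones alone, and DESeq2 called 2 V genes. Of the 109 single-template rearrangements with TCRBV24-01, 37 came from 5NR and 34 had the CDR3 nucleotides of an expanded clone of their mouse. Without such copies and without rearrangements whose V part differed from the consensus of the gene, its log2 fold change was 0.18 (edgeR adjusted p = 0.695).

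The comparison with out-of-frame single-template rearrangements sets the pool against 2683 rearrangements of the same mice and the same template number that make no chain. Here 9 of 25 V genes differed (36%, edgeR), 4 higher (16%) and 5 lower (20%). TCRBV12-02 stood highest, with 5.40% ± 1.05 of the in-frame and 2.33% ± 0.663 of the out-of-frame rearrangements (SD, n = 7, log2 fold change 1.22 ± 0.18 SE, adjusted p = 6.98e-07). Its in-frame share was above its out-of-frame share in all 7 mice. TCRBV29-01 (0.58), TCRBV13-01 (0.55) and TCRBV03-01 (0.47) were the other genes that were higher. TCRBV21-01 (-1.28), TCRBV24-01 (-1.04), TCRBV04-01 (-0.72), TCRBV20-01 (-0.69) and TCRBV16-01 (-0.37) were lower. TCRBV21-01 rests on 12 in-frame and 20 out-of-frame rearrangements. Of the 109 in-frame rearrangements with TCRBV24-01, 108 had a stop codon before the CDR3, read in the frame of the CDR3. DESeq2 called 2 of these V genes.

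In that comparison 1 of 12 J genes passed (8.33%). TCRBJ02-07 was 11.2% ± 2.99 of the in-frame and 25.5% ± 2.94 of the out-of-frame single-template rearrangements (SD, n = 7, log2 fold change -1.39 ± 0.12 SE, edgeR adjusted p = 5.32e-11), and the 2 pools did not overlap. After the same thinning, the log2 fold change was -0.13 and did not pass (edgeR adjusted p = 0.692). The thinned pools also hold rearrangements that had more templates before thinning. In 6NR, which thinning left unchanged, TCRBJ02-07 was 12.8% of the in-frame and 26.7% of the out-of-frame single-template rearrangements.

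**Figure D2:**
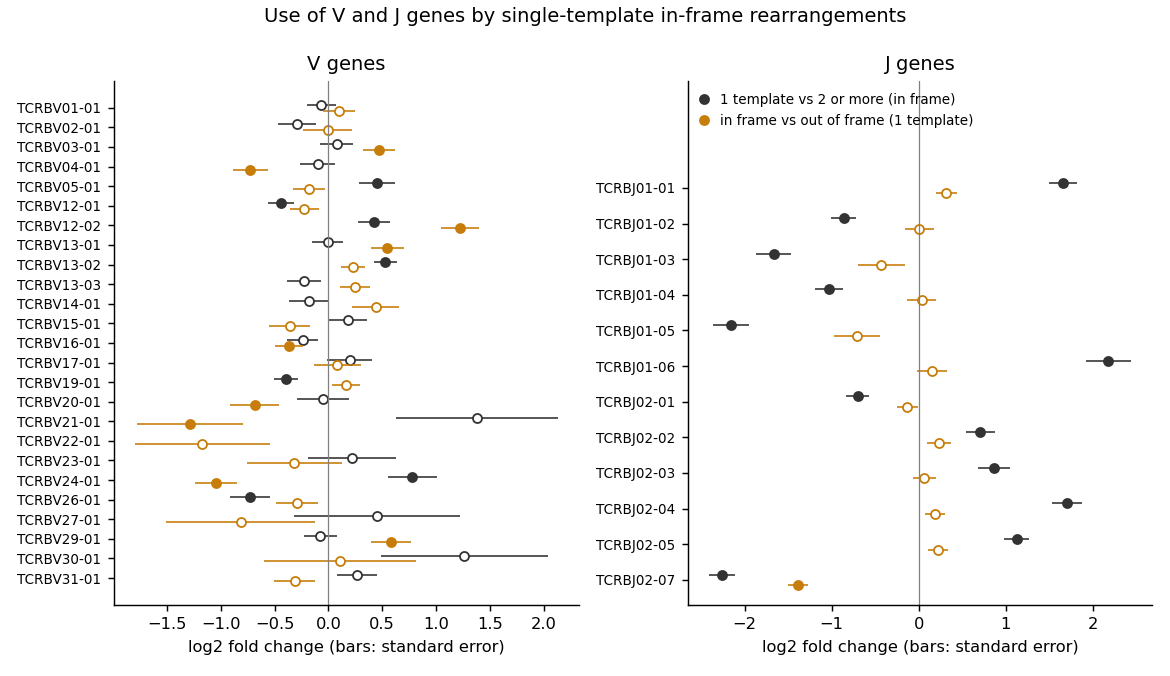
Log2 fold change of V gene use (left) and J gene use (right) for single-template in-frame rearrangements against in-frame rearrangements with 2 or more templates (dark) and against out-of-frame rearrangements with 1 template (orange). Bars are standard errors, and filled points passed edgeR's adjusted p of 0.05 while open points did not. The J genes spread from -2.26 to 2.18 in the first comparison, and only TCRBJ02-07 is filled in the second.

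Junctions of the pool differed from those of the other pools in length and trimming. The mean CDR3 length was 14.1 residues ± 0.0452 in single-template rearrangements and 13.8 ± 0.0652 in those with 2 or more templates (SD over 7 mice). The difference was 0.321 residues, longer in 7 of 7 mice (exact sign-flip permutation test, two-sided, adjusted p = 0.0365 over 14 features). V genes had lost 2.67 bases against 2.57, more in 7 of 7 mice, and J genes 2.61 against 3.02, fewer in 7 of 7 (same exact test, adjusted p = 0.0365 for both). TCRBD01-01 took 51.9% ± 1.81 of the unambiguous D calls against 54.5% ± 1.42, lower in 7 of 7 mice by 2.63 percentage points (exact permutation test, adjusted p = 0.0365). N insertions averaged 3.46 bases ± 0.0304 against 3.33 ± 0.139 and did not pass (exact permutation test, adjusted p = 0.122).

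In all 6 of 14 features passed, and the remaining pair among them was the share of the most used V gene and of the most used J gene, which had been picked for their number in this pool. When the differences were taken within each J gene, 0 of 12 features passed by the exact test. The CDR3 length difference was then 0.170 residues, still longer in 7 of 7 mice (exact permutation test, p = 0.0156, adjusted p = 0.0625), and the J trimming difference was -0.0695 bases, lower in 5 of 7 (exact permutation p = 0.562). The difference in V trimming was -0.0255 bases within J genes and -0.0688 against rearrangements with exactly 2 templates, in the opposite direction. Other features also turned in these settings. J cluster 2 was -1.40 percentage points in the pools as a whole (exact permutation test, adjusted p = 0.457) and 7.40 against exactly 2 templates (adjusted p = 0.0438). The share of CDR3s with GTG, a motif that a D segment encodes, was -1.32 points in the pools as a whole (exact permutation test, p = 0.0469, adjusted p = 0.0938) and 2.52 within J genes (p = 0.0156, adjusted p = 0.0625). Thinned to the shallowest mouse, 0 of 14 features passed (8 before adjustment), and the CDR3 length difference was 0.0961 residues (exact permutation test, adjusted p = 0.239).

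Against out-of-frame rearrangements with 1 template, 7 of 11 features passed by the exact sign-flip permutation test. The shares of the most used V and J gene, picked for their number in this pool, are 2 of the 7, which leaves 5 that were not picked so. N insertions averaged 3.46 bases in frame and 5.04 ± 0.490 out of frame, lower in frame in 7 of 7 mice by 1.58 bases (difference -1.58, adjusted p = 0.0430, exact permutation). In-frame rearrangements had also lost fewer V bases (2.67 against 3.93) and fewer J bases (2.61 against 3.04), each in 7 of 7 mice with the same adjusted p. TCRBD01-01 took 51.9% of the D calls in frame and 42.5% out of frame, higher in 7 of 7 mice. J cluster 2 made up 69.1% against 73.6%, lower in 6 of 7 mice (exact permutation test, adjusted p = 0.0491). Before adjustment its p was 0.0312 (exact permutation test), the same as for the 2 picked shares. Those shares were adjusted together with it, so the call of J cluster 2 depends on their being among the 11 features. Thinned to the depth of the shallowest mouse, 0 of 11 features passed (6 before adjustment, exact permutation test), with differences of -1.23 N bases, -0.904 V bases, -0.319 J bases and 4.08 percentage points for TCRBD01-01. The difference in J cluster 2 was then 1.44 percentage points, in the opposite direction. Mean CDR3 lengths in these 2 pools, 14.1 and 14.2 residues, were within the spread of the 7 mice (exact permutation test, adjusted p = 0.312).

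**Figure D3:**
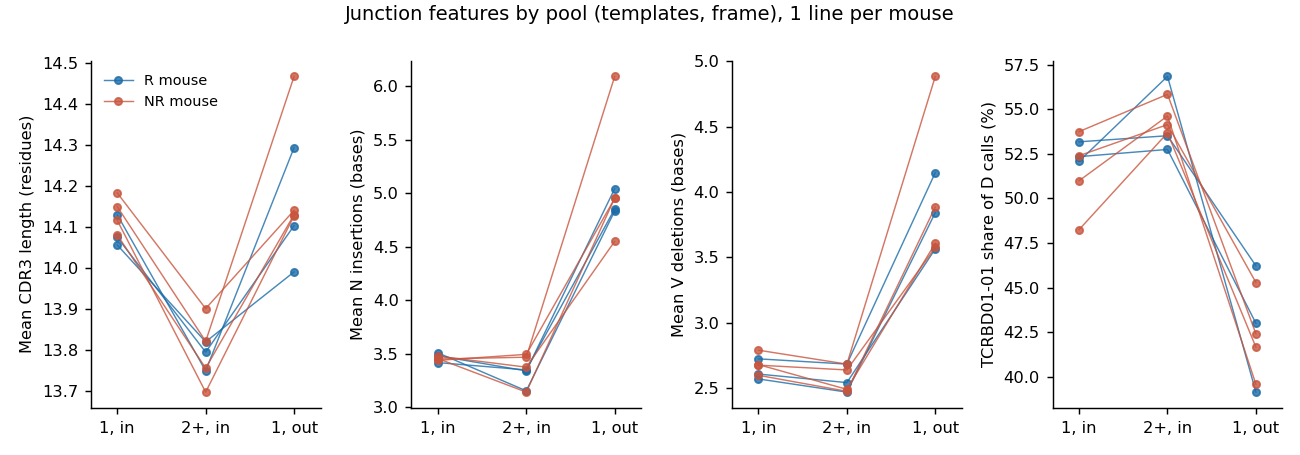
Mean CDR3 length (residues), mean N insertions (bases), mean V deletions (bases) and the share of TCRBD01-01 among D calls (percent) for single-template in-frame rearrangements, in-frame rearrangements with 2 or more templates and out-of-frame rearrangements with 1 template. Each line is a mouse and the axes do not start at 0. All 7 lines fall in CDR3 length from the first pool to the next, and all 7 rise in N insertions to the out-of-frame pool.

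The deposited rearrangement is 87 bases long and reaches from the V gene through the CDR3, so the bases before the CDR3, 30 to 66 of them, can be set against the other rearrangements of the same V gene. A consensus of this V part was read for 23 V genes from their rearrangements with 2 or more templates, which are therefore closer to it by construction. Of 3976 single-template rearrangements with such a V gene, 473 differed from the consensus at 1 or more bases, or 11.9%. Their share was 9.55%, 12.1% and 11.0% in the R mice and 11.0%, 18.0%, 14.5% and 10.7% in the NR mice. In rearrangements with 2 or more templates that were not expanded, the mean share was 2.35% ± 1.48 against 12.4% ± 2.92 in the pool (SD, n = 7), lower in 7 of 7 mice. The difference was 10.1 percentage points (exact sign-flip permutation test, p = 0.0156). Out-of-frame rearrangements with 1 template, which were not used to read the consensus either, stood at 10.6% ± 1.27 (exact permutation test against the in-frame pool, p = 0.0781).

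The share of differing V parts was highest at 1 template and near 0 from 3 templates on. In frame it was 11.9% with 1 template, 3.60% with 2, 0.263% with 3, 0.379% with 4 or 5 and 0 of 530 with 6 or more, which allows up to 0.566%. Out of frame it was 10.5%, 3.49% and 0.717% with 1, 2 and 3 templates and then 0 of 101 with 4 or 5 and 0 of 185 with 6 or more, which allow up to 2.97% and 1.62%. By V gene of the pool, it was highest with TCRBV24-01 (37.6% of 109), TCRBV13-03 (26.4% of 276) and TCRBV16-01 (26.1% of 268).

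**Figure D4:**
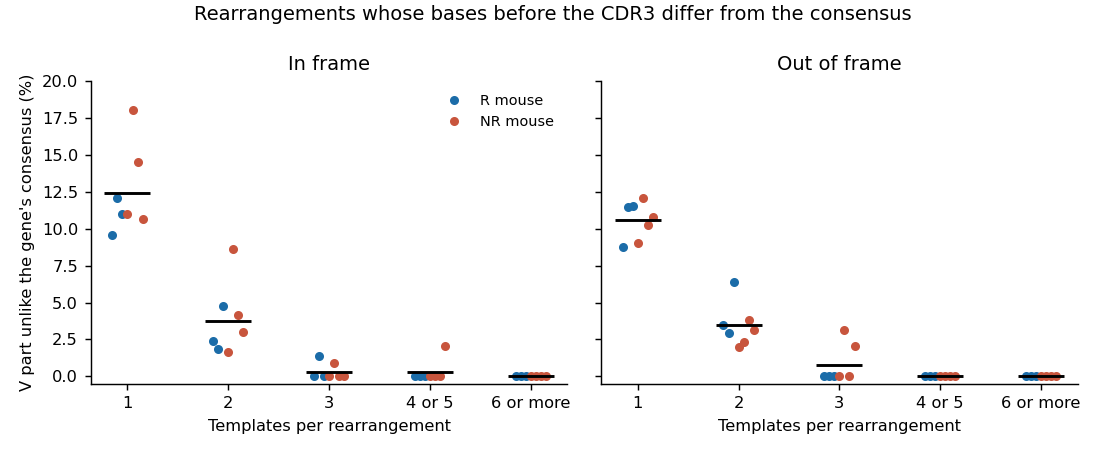
Share of rearrangements (percent) whose bases before the CDR3 differ from the consensus of their V gene, by template number, in frame and out of frame. Points are mice and bars are means of 7 mice. The mean drops from 12.4% with 1 template to 3.78% with 2 in frame, and from 10.6% to 3.45% out of frame.

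The in-frame call of the files covers the CDR3 only. Read in the frame of the CDR3, the V part of 165 single-template rearrangements (4.11%) contained a stop codon, although none of the 4011 had one in the CDR3. TCRBV24-01 accounted for 108 of the 165, and 108 of its 109 single-template rearrangements had the stop. Of the 57 with other V genes, 56 had a consensus and all of these differed from it. The share was 3.15%, 3.52% and 3.91% in the R mice and 3.35%, 9.34%, 3.74% and 2.62% in the NR mice, so 5NR stood apart. Of the 52 such rearrangements of 5NR, 37 carried TCRBV24-01. The share was higher than among rearrangements with 2 or more templates (4.23% ± 2.29 against 1.84% ± 1.15, SD) in 7 of 7 mice (exact permutation test, p = 0.0156). Among out-of-frame single-template rearrangements it was 7.05% ± 2.20 (exact permutation test, p = 0.0312). Apart from this, 35 single-template rearrangements (0.873%) encoded a CDR3 that did not begin with the conserved cysteine.

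Next the pool was set against the expanded clones of the same mouse, meaning the 393 in-frame rearrangements above 0.1% of productive templates. As the threshold is a share, the smallest of these clones had 3 templates in 6NR and 17 in 7NR. Expanded clones were 22.2% of the in-frame rearrangements of 6NR but 3.76% of those of 7NR. In 6NR all 72 rearrangements with 2 or more templates that were not expanded had exactly 2. A single-template rearrangement at 1 nucleotide from an expanded clone over the whole 87 bases was rare. There were 5 among 4011, of which 3R had 2 and 2R, 5NR and 6NR had 1 each. The other three mice had 0, which allows a share of up to 0.378% in 1R, 0.529% in 4NR and 0.357% in 7NR (counting error only). The 5 pairs are shown because they are all such neighbours in the 7 mice. Each pair gives the clone and then the single-template rearrangement, and capitals mark the base that differs. Positions are counted from 1 at the 5′ end of the deposited sequence.
2R clone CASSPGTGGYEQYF, TCRBV12-01 with TCRBJ02-07, 11 templates: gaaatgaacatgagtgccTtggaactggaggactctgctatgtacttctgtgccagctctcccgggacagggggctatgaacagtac
2R single template, T19C: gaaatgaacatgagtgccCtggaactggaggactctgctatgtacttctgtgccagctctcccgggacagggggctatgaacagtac
3R clone, TCRBV19-01 with TCRBJ02-07, 10 templates: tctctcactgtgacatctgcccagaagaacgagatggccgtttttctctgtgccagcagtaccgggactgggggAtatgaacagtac
3R single template, A75C: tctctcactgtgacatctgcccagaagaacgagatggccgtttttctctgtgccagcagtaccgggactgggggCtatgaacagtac
3R clone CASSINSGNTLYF, TCRBV19-01 with TCRBJ01-03, 16 templates: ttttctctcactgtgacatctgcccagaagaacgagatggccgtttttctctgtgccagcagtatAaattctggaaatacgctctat
3R single template, A66C: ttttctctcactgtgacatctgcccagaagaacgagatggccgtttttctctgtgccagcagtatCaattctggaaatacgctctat
5NR clone, TCRBV16-01 with TCRBJ02-07, 20 templates: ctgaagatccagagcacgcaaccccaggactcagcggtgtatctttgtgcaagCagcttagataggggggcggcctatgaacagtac
5NR single template, C54T: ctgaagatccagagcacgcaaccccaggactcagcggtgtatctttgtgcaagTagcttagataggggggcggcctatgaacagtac
6NR clone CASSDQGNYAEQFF, TCRBV13-03 with TCRBJ02-01, 5 templates: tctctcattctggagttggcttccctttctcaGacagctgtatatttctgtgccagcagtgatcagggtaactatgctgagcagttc
6NR single template, G33A: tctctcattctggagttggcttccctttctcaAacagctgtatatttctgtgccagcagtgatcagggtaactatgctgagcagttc

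In all 5 pairs the CDR3 amino acid sequence was the same on both sides. The difference lay in the CDR3 in 3 pairs and in the V part in the other two. The 5 clones were small for expanded ones, with 5 to 20 templates. The share of such neighbours was 0.180% ± 0.201 in the single-template pool and 0.380% ± 0.250 among the 2503 rearrangements with more templates that were not expanded (SD, n = 7). The difference of -0.200 percentage points was within the spread between mice (exact sign-flip permutation test, p = 0.203). Without 6NR it was -0.322, and for a pool of 1 or 2 templates, which left 6NR with no comparison, it was -0.832 (exact permutation test, p = 0.0312 for both). Measured against expanded clones of the other mice, the mean share was 0.0961%, and the difference from the own mouse, 0.0841 percentage points, was within the spread between mice (exact permutation test, p = 0.312).

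Neighbours by amino acid sequence were more frequent. A CDR3 of the same length and 1 residue away from an expanded clone of the same mouse was found for 162 single-template rearrangements, or 4.04%. The mean share was 4.26% ± 1.52 in the pool and 4.40% ± 1.84 among the rearrangements with more templates that were not expanded (exact permutation test, p = 0.781). Against expanded clones of other mice it was 3.26% ± 1.25, lower than in the own mouse in 6 of 7 mice by 0.998 percentage points (exact permutation test, p = 0.0469). This last p stands beside 3 other neighbour measures compared in the same way. A single substitution, insertion or deletion within the CDR3 nucleotides separated 60 single-template rearrangements from an expanded clone of their mouse.

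The pool held many more rearrangements with exactly the CDR3 nucleotides of an expanded clone of the same mouse but a different sequence before it. They numbered 322, or 8.03% of the pool, with 36, 35 and 54 in the R mice and 39, 78, 18 and 62 in the NR mice. The mean share was 8.44% ± 2.92 in the pool and 2.24% ± 1.58 among the rearrangements with more templates that were not expanded (SD, n = 7). It was higher in the pool in 7 of 7 mice by 6.20 percentage points (exact permutation test, p = 0.0156). Against the clones of other mice the share was 2.12% ± 1.67, also lower in 7 of 7 (exact permutation test, p = 0.0156). The V gene call was that of the clone in 249 of the 322 and another V gene in 73. Of those with a consensus, 274 of 313 (87.5%) differed from it in the V part. In the rest of the pool it was 199 of 3663 (5.43%). This contrast follows largely from the definition, because a rearrangement with a clone's CDR3 nucleotides can differ from the clone only before the CDR3.

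Counts of such copies are given by the size of the clone, pooled over mice and with no test. Of the 79 clones above 1% of productive templates 63 had at least 1 such single-template rearrangement, and of the 314 clones between 0.1% and 1% 68 had one. Per 1000 templates of the clones there were 4.66 above 1% and 12.5 between 0.1% and 1%. This rate ran from 3.18 in 1R to 10.8 in 4NR over all clones of a mouse. By V gene it was highest for TCRBV13-02 (63.6, from 21 copies on 330 templates), followed by TCRBV24-01 (46.8). For TCRBV16-01 it was 2.77, and the clones of several V genes had no copies. The clone with most copies was a TCRBV24-01 clone with TCRBJ02-07 in 5NR, with LGTGES at the core of its CDR3. It held 470 templates, or 4.00% of the productive templates, and 15 single-template rearrangements repeated its CDR3 nucleotides, 14 of them with the same V gene. The clone is in frame by the deposited call, but its V part contains a stop codon in the frame of the CDR3, as do those of the copies shown. They differed from it at 3 to 17 bases of the whole sequence, with a median of 3. The clone and 3 of its copies are shown because they make the place of the differences visible. Capitals mark the bases that differ from the clone, all of them before the CDR3.
5NR clone, 470 templates: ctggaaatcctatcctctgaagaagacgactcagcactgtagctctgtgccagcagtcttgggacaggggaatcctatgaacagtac
5NR copy, 1 template: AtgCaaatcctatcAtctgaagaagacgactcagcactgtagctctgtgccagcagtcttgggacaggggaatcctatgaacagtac
5NR copy, 1 template: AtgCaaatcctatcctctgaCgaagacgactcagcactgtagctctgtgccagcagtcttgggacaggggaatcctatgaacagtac
5NR copy, 1 template: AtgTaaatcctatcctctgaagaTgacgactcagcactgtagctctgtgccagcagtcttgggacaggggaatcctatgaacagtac

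**Figure D5:**
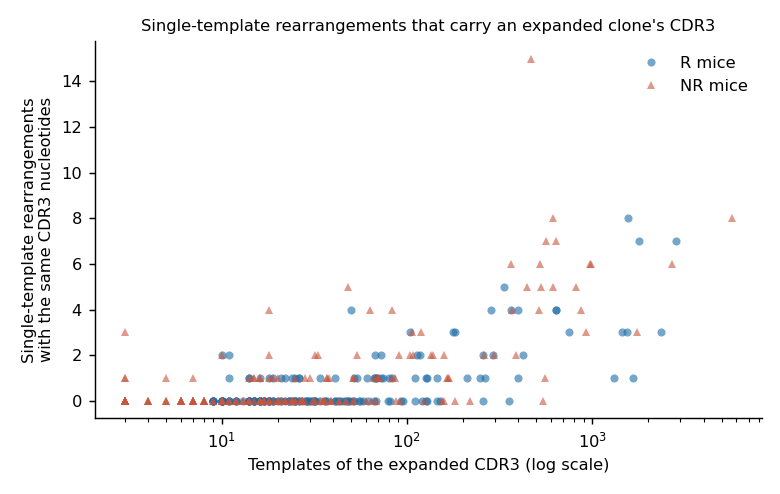
Number of single-template rearrangements with the CDR3 nucleotides of an expanded clone of the same mouse, by the number of templates of that CDR3 (log axis). Each point is an expanded CDR3, blue circles are R mice and red triangles NR mice. Most clones of few templates lie at 0, and the highest point is the 5NR clone with 470 templates and 15 copies.

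Most of the pool shared its exact CDR3 amino acid sequence with no other in-frame rearrangement of its mouse. This held for 3334 of the 4011, a mean of 83.0% ± 3.81 per mouse (SD, n = 7). Across mice, 197 had a nucleotide sequence that was also found in another mouse, and 62 of these were expanded there. By mouse they were 2.14%, 2.35% and 6.72% in R and 2.47%, 4.85%, 28.3% and 3.92% in NR, so 6NR lay far above the rest. Among rearrangements with 2 or more templates 6NR was also highest, with 43.2%. The share in the pool was lower than among those in 7 of 7 mice, by a mean difference of -11.7 percentage points (exact permutation test, p = 0.0156). For the CDR3 amino acid sequence the mean was 18.1% ± 10.2, covering 613 rearrangements, and the difference from rearrangements with more templates was -8.86 percentage points, lower in 7 of 7 mice (exact permutation test, p = 0.0156). Both measures depend on the number of rearrangements listed for the other mice, and the part of template number in them was not tested. A shared sequence is counted in every mouse that holds it, so the differences in the 7 mice are not independent.

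Counted by CDR3 amino acid sequence, 3398 were single-template in 1 mouse, 103 in 2 mice, 16 in 3, 3 in 4, 2 in 5 and 1 in 7. The sequence in 7 mice had LEGTGG at its core, was found with 38 different nucleotide sequences among 40 single-template rearrangements, and was also an expanded clone in all 7 mice. Such nucleotide sequences can differ before the CDR3, and how many of them differ within it was not counted. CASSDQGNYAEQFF was single-template in 5 mice with 14 nucleotide sequences and expanded in 5 mice. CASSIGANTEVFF was single-template in 5 mice with 3 nucleotide sequences and expanded in none. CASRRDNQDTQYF and a sequence with LGLGGAE at its core were single-template in 4 mice each. The former was expanded in 4 mice and the latter in 1. Examples of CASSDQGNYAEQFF and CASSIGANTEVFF are shown because their N bases, in capitals, are few.
1R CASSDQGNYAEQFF: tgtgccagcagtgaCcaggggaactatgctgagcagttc
5NR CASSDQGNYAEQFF: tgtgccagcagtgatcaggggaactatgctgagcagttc
6NR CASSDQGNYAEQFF: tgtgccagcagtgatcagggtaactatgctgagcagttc
2R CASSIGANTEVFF: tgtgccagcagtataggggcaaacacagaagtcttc
3R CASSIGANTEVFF: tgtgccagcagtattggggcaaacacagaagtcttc
4NR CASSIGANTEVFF: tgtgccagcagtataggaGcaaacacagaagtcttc

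CDR3s that were single-template in 2 or more mice had fewer N bases than those in 1 mouse. Their mean was 2.37 bases ± 0.420 over 414 rearrangements, against 3.60 ± 0.0889 over 3597 (SD, n = 7). The difference of -1.23 bases had the same direction in 7 of 7 mice (exact sign-flip permutation test, p = 0.0156). A CDR3 of the first set enters the means of 2 or more mice, so the 7 differences are not independent. The sequence with LEGTGG at its core, with 40 rearrangements and a mean of 1.55 N bases, enters all 7.

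No sequence measure of the pool passed a test between R and NR mice after adjustment. With a smallest p of 0.0286 in the exact permutation test, a single feature could not pass after adjustment over 14. Of 14 features 0 passed by the exact permutation test over the 35 divisions of the mice, and 1 was below 0.05 before adjustment. It was the share of CDR3s with GQG, a motif that a D segment encodes, with 4.42% ± 0.511 over the 3 R mice and 2.97% ± 0.398 over the 4 NR mice (SD, exact permutation p = 0.0286, adjusted p = 0.400). N insertions averaged 3.47 bases in R and 3.45 in NR, and CDR3 lengths 14.1 residues in both. Among V genes 0 of 22 passed (0%, edgeR, 1 before adjustment and 0 by DESeq2), and among J genes 0 of 12 (0%, 0 before adjustment and 0 by DESeq2). TCRBJ02-07, the J gene with the widest spread over the mice, had means of 9.84% in R and 12.3% in NR. The share of 1-nucleotide neighbours was 0.182% ± 0.163 in R and 0.179% ± 0.252 in NR (exact permutation test, p = 0.914). The share with the CDR3 nucleotides of an expanded clone was 7.06% in R and 9.47% in NR (exact permutation test, p = 0.400), and that of differing V parts was 10.9% and 13.6% (exact permutation test, p = 0.314).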

How the data were processed

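TCRβ rearrangements of CD8 TILs were analysed for 3 R and 4 NR mice, 1 library each. The deposited template counts are whole numbers per nucleotide rearrangement, which the authors' service provider estimated from immunoSEQ reads, and the deposited numbers of deleted and inserted nucleotides and the V, D and J names (IMGT) were used as given. The genome build is not given in the sources used here, so no coordinates are printed. The deposited overview of totals was not used.

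Each rearrangement was counted once. Pools of a mouse were compared by two-sided exact sign-flip permutation tests over mice and R with NR by exact permutation tests over 35 divisions. Benjamini-Hochberg adjustment was made over the sequence features of a comparison. The exact tests of neighbours, CDR3 copies, V parts, stop codons, sharing between mice, N bases of shared CDR3s and pool shares were not adjusted. Distinct rearrangements per V or J gene were tested with edgeR 4.0.16 in R 4.3.3 (quasi-likelihood, common dispersion, TMM, at least 10 rearrangements). Log2 fold changes follow this normalization and can differ from the ratios of the shares printed beside them. Genes left unresolved (V in 0.188% and J in 0.116% of in-frame rearrangements) stayed out of totals and tests. DESeq2 1.42.0 was an alternative. Other steps ran in Python 3.11.15 (numpy 2.4.6, pandas 2.3.3), and the tests were tested on simulated data. Expanded means above 0.1% of productive templates, so the template number needed depends on the depth of the mouse. The V-part consensus needed 10 rearrangements of 2 or more templates.

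The members, gene lists and rules were chosen with earlier results of these data known. V and J genes named are the most used and those that passed a test, and sequences are those with most neighbours or found in most mice. The clone with most copies of its CDR3, the member near the middle of the pool and the tests of V parts, stop codons and CDR3 copies were added after seeing the data. Replicate numbers of R and NR mice name different animals and pair nothing. Other alternatives covered depth, thresholds, the comparison pool, normalization and leaving out each mouse.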

Additional observations from a re-analysis of the deposited data

Results flagged for a closer look

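In 2 of 23 checks over the 4 NR mice, 1 mouse lay far from the others, and chance flags about 1 in 20 such groups. In 6NR 28.3% of the single-template rearrangements were also found in another mouse, against 2.47% to 4.85% in the other NR mice. Among rearrangements with 2 or more templates 6NR was also highest, with 43.2% against 10.5%, 20.7% and 11.6%. In 5NR 9.34% of the single-template rearrangements had a stop codon in the V part, against 2.62% to 3.74%. Of these 52 in 5NR, 37 carried TCRBV24-01. Of 25 differences between R and NR in the contrasts of the pool with the other pools, 0 passed. Their smallest adjusted p was 0.905 (exact permutation test). A single difference at the smallest p of this test, 0.0286, could not have passed over 25.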

How the results depend on the processing

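Of 127 recomputed results (leaving out a mouse is counted apart), 103 kept their direction and side of the threshold, 11 lost calls, 4 gained calls and 9 turned in direction. The features called against rearrangements with 2 or more templates (6) became 0 after thinning to the shallowest mouse, 0 with sequences found in 1 mouse only and 0 within J genes (a setting chosen after seeing the data). Those called against out-of-frame rearrangements (7) became 0 after thinning. Without any 1 mouse both were 0 to 0, because 6 mice need 9 of 14 (7 of 11) features at the smallest p of 0.0312. Before adjustment 6 to 7 and 4 to 6 then passed. V genes called against rearrangements with more templates (7) were 4 after thinning, 3 with sequences of 1 mouse only, 0 against 2 templates only, 2 by DESeq2 and 3 to 7 without 1 mouse, and J genes (12) were 7 after thinning. Against out-of-frame rearrangements, V genes (9) were 2 by DESeq2 and 4 to 8 without 1 mouse. J genes (1) were 0 after thinning, 5 without normalization, 3 without V-part differences and copied CDR3s, 3 without V-part stop codons and 1 to 3 without 1 mouse. The 1-nucleotide difference from other small rearrangements (-0.200) was 0.0691 with sequences of 1 mouse only, 0.505 for 1 step in the CDR3, -0.832 for a pool of 1 or 2 templates (6 mice, exact permutation p = 0.0312) and -0.322 to -0.136 without 1 mouse, with p = 0.0312 (exact permutation) without 6NR. The own minus other mice difference (0.0841) was -0.0748 for 1 or 2 templates, -0.0287 for clones above 1%, -0.00583 for clones of 10 or more templates and 0.0282 to 0.122 without 1 mouse. The R minus NR difference (0.00384) was -0.0978 with sequences of 1 mouse only, -0.795 for 1 step in the CDR3 and -0.0612 to 0.123 without 1 mouse. The 1-residue difference (-0.148) was 0.211 with the V gene required to match and -0.382 to 0.139 without 1 mouse. No 1-nucleotide or 1-residue difference among these passed otherwise. The CDR3 copy difference stayed at 5.76 to 6.68 and the V-part difference at 9.50 to 10.4 percentage points without 1 mouse. Of 447 values of the 42 genes and features named as passing, 356 kept their call, 86 lost it and 5 turned: TCRBV19-01 (0.0882 against expanded clones), V deletions (-0.0688 against 2 templates, -0.0255 within J genes), TCRBD01-01 (0.858 for 1 or 2 templates) and J cluster 2 (1.44 after thinning). A replicate block, with 3 pairs that share only a number and a smallest p of 0.25, gave 0 calls between R and NR and turned the 1-nucleotide difference to -0.0557. Single templates of the shallowest mouse are 0.0429% of its repertoire, so its rarer clones were not detectable at this depth.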
